A study of Mus musculus with 6 samples.

Results

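The subject is 10 transcription factors that specify or mature the gut epithelium and their RNA levels in mouse tumor organoids given chemotherapy. They were the CDX homeobox proteins Cdx1 and Cdx2, the nuclear receptors Hnf4a and Hnf4g, the GATA factors Gata4 and Gata6, the Krüppel-like factors Klf4 and Klf5, the ETS factor Elf3 and the vitamin D receptor Vdr. The set was chosen by name, as factors known for lineage choice and differentiation in the gut, with earlier results of these data known. Its Ensembl identifiers were matched to GENCODE symbols. All 10 had a row among the 24190 genes of the count table.

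RNA was sequenced from 6 cultures of MTO54, one line of mouse tumor organoids (MTOs) of the triple mutant AKP genotype. Organoids are cultures grown in a matrix from dissociated cells. All cultures were the parental line in complete stem cell medium, and the 3 control cultures received fresh medium only. The 3 Folfiri cultures received 5FU at 50 μg/μl, a unit copied from the labels, and SN38 at 100 nM, from day 2 after seeding and for 2 days. 5FU blocks thymidylate synthesis, and SN38, the active form of irinotecan, inhibits topoisomerase I. Age, sex and animal are not given for the cultures. The paper calls them biological replicates, 3 per condition, but does not say how they differ. All come from one line, so p values measure the spread between these cultures, which may be technical.

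In the gut, CDX2 keeps endoderm on the intestinal path, and loss of it lets cells take on features of the stomach. HNF4 and GATA factors act with CDX2 at enhancers of absorptive genes, HNF4α and HNF4γ largely stand in for each other in villus cells, and GATA4 marks the upper small intestine whereas GATA6 is found along the whole gut. KLF4 is a factor of differentiated cells and KLF5 of dividing crypt cells, ELF3 is restricted to epithelia, and VDR, with a retinoid X receptor as partner, switches on genes of calcium uptake.

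The libraries held between 22103591 and 30098210 counts on genes. Between replicates, the differences over genes exceeded sampling noise in every pair, with chi-square per degree of freedom from 3.55 to 23.7, and control replicate 1 and Folfiri replicate 3 stood farthest from the others of their groups. Values with a library left out are given beside each of the 8 factors tested. Of the epithelial markers Epcam, Cdh1, Krt8, Krt18, Cldn3 and Cldn4, 6 of 6 were above 1 CPM in both groups. Vil1, a brush border protein, averaged 172 ± 9.63 CPM (SD, n = 3) over the controls and 159 ± 7.07 CPM over the Folfiri cultures, while Krt20, a keratin of mature gut cells, was at 1.44 ± 0.0716 and 1.31 ± 0.233 CPM. CPM are counts scaled to the library total, which was corrected for composition with TMM factors.

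Folfiri cultures had lower RNA levels of Cdx2, Hnf4a, Elf3, Klf4 and Klf5 and a higher level of Gata6. The largest fitted change among the tested factors was that of Hnf4a, which averaged 12.5 ± 2.24 CPM over the controls and 2.09 ± 0.299 CPM over the Folfiri cultures. Of the 10 factors, 8 passed the filter on low counts, and 6 of these passed an adjusted p of 0.05 in edgeR's quasi-likelihood test, 5 lower and 1 higher. In the whole table this threshold was passed by 79.1% of the 14692 tested genes, 40.3% higher and 38.8% lower, so the number of factors called is near the background. With a log2 fold change of -1 or less, 3 factors were lower, against 16.8% of tested genes, and 0 were higher by 1 or more, against 19.5%. The median log2 fold change was -0.58 over the 8 tested factors and 0.02 over all tested genes. It was -0.98 over the 6 factors kept by a filter of 1 CPM in 3 cultures. In bulk RNA, fewer cells of a type and less RNA per cell cannot be told apart.

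**Figure D1:**
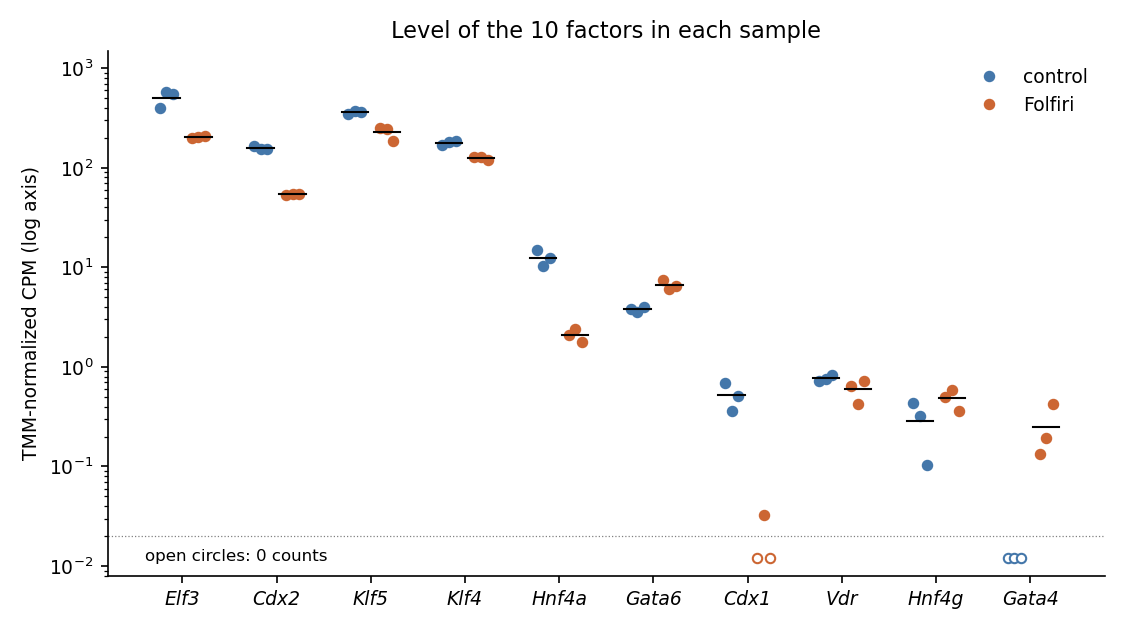
TMM-normalized CPM of the 10 factors in each of the 3 control and 3 Folfiri cultures, on a log axis. Black bars are group means, drawn where no culture is at 0, and open circles stand for 0 counts. Folfiri cultures lie under all controls for Cdx2, Hnf4a, Elf3, Klf4, Klf5 and Cdx1, over them for Gata6 and Gata4, and the groups overlap for Hnf4g and Vdr.

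Cdx2 (ENSMUSG00000029646) lies on the minus strand of chromosome 5, at 147300805 to 147307270 in GRCm38. Its level was 165, 153 and 153 CPM in controls 1, 2 and 3, and 53.7, 55.2 and 54.7 CPM in Folfiri replicates 1, 2 and 3. The Folfiri cultures were close to each other and far under the lowest control. The group means were 157 ± 6.88 and 54.5 ± 0.753 CPM, a 2.88-fold lower level, with a log2 fold change of -1.53 ± 0.07 (SE) and an adjusted p of 1.83e-08 in edgeR. Leaving out each culture in turn gave log2 fold changes from -1.56 to -1.49.

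The sequence just upstream of a start site is shown for Cdx2 and Hnf4a, the factors with the largest fitted changes for which a promoter window was given. RefSeq windows on GRCm38.p6, from 250 bases before to 50 bases after a start, were matched for 5 of the 10 factors (Cdx2, Hnf4a, Elf3, Klf4 and Vdr), with 2 windows for Hnf4a. Those of Cdx1, Hnf4g, Klf5, Gata4 and Gata6 were not analysed here. Each sequence covers bases 250 to 46 before the start, 5′ to 3′ on the strand of the gene, and capitals mark a match to a motif of one of the factor families. For Cdx2 the stretch is chr5:147307295-147307499 on the minus strand, and for Hnf4a it is chr2:163506607-163506811 on the plus strand, at the upstream of its 2 windows.
Cdx2: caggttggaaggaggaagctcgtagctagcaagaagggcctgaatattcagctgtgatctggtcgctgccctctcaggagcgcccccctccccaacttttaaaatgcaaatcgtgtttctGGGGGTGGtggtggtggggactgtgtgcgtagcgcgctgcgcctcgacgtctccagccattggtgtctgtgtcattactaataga
Hnf4a: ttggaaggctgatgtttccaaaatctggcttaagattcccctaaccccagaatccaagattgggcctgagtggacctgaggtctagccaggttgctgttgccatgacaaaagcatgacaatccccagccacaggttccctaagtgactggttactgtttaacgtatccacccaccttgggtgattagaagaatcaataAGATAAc

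Short motifs were searched on both strands of the whole windows. The letters were CAAAGTCCA for HNF4 proteins, TTTATNG for CDX proteins, AGATAA for the GATA family, GGGNGTGG for the KLF family, GGAAGT for ETS proteins and GGTTCA for a single site of VDR. The Cdx2 window held a KLF match at position -130, counted from the start site, and the upstream Hnf4a window held a GATA match at position -52. The GATA match overlaps the first annotated base of Hnf4a in GENCODE, which lies upstream of the RefSeq start, and the last 4 bases shown are exonic there. In the Vdr window a KLF match began at position -81. The windows of Elf3 and Klf4 and the other Hnf4a window held none of the 6 motifs. Of all 32851 windows of this length, 17.6% held the KLF motif, 11.2% the GATA motif, 10.9% the CDX motif, 0.475% the HNF4 motif, 23.8% the ETS motif and 10.4% the VDR motif. A match is a run of letters and no measured site.

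Cdx1 (ENSMUSG00000024619, chromosome 18, 61018862 to 61036199), the paralog of Cdx2, was near the detection limit. It had 19, 9 and 10 counts in the controls and 0, 1 and 0 counts in the Folfiri cultures. Every control held more counts than any Folfiri culture. The normalized control level was 49.4 times that after Folfiri, with an interval from 8.34 to 2000 that covers counting error only, since just 1 count was left. It was 32.0 times without Folfiri replicate 3, and at least 11.0 times without Folfiri replicate 2, which held that count. Cdx1 failed the main filter. Without a filter edgeR gave an adjusted p of 2.98e-07, and DESeq2's Wald test gave 1.0e-04.

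Hnf4a (ENSMUSG00000017950, chromosome 2, 163506808 to 163572910, plus strand) was read at 14.8, 10.4 and 12.3 CPM in controls 1, 2 and 3. In Folfiri replicates 1, 2 and 3 it was at 2.08, 2.39 and 1.79 CPM. No Folfiri culture came near the lowest control. The level was 6.01-fold lower, with a log2 fold change of -2.59 ± 0.17 (SE) and an adjusted p of 2.83e-07 in edgeR. Leaving out control replicate 1 gave -2.44, and leaving out Folfiri replicate 3 gave -2.48. An antisense gene, Hnf4aos, overlaps the Hnf4a locus but shares 0 exonic bases with it. Counts per gene do not separate transcripts from its different start sites.

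Hnf4g (ENSMUSG00000017688, chromosome 3, 3508030 to 3658052) was low in all cultures. Its counts were 12, 8 and 2 in controls and 15, 18 and 12 in Folfiri cultures, or 0.432, 0.320 and 0.103 against 0.503, 0.581 and 0.364 CPM. The groups overlapped. The log2 fold change was 0.66 ± 0.41 (SE), which did not pass the threshold (adjusted p = 0.164, edgeR), and 1 library moved it, to 1.08 without control replicate 1 (adjusted p = 0.0599, edgeR) and to 0.33 without control replicate 3. At this depth the ratio of control to Folfiri could lie between 0.363 and 1.08 from counting error alone. As a share of Hnf4a per exonic length, Hnf4g was at 5.35%, 5.67% and 1.53% in controls 1, 2 and 3 and at 44.4%, 44.6% and 37.3% in Folfiri replicates 1, 2 and 3. Every Folfiri share was above every control share. The log2 ratio differed by 3.55 between groups, with an exact two-sided permutation p of 0.1, the smallest that 3 against 3 allows, and an adjusted p of 0.2 over the 2 pairs of paralogs with no count of 0. Without control replicate 3, which held 2 Hnf4g counts, the difference was 2.93. Hnf4a was called lower and Hnf4g was not called, so the share does not show a gain of Hnf4g.

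Gata6 (ENSMUSG00000005836, chromosome 18, 11052064 to 11085635) was at 3.82, 3.56 and 4.01 CPM in controls 1, 2 and 3. The Folfiri replicates 1, 2 and 3 were at 7.48, 6.13 and 6.52 CPM. All Folfiri cultures were above all controls. The mean went from 3.80 ± 0.227 to 6.71 ± 0.692 CPM, a 1.77-fold higher level, with a log2 fold change of 0.82 ± 0.14 (SE) and an adjusted p of 0.00022 in edgeR. It was the only factor among the 8 tested that was called higher, and leaving out each culture in turn gave 0.74 to 0.89. The library kit does not mark strand, and reads from the 93 exonic bases, 1.43% of its exonic length, that Gata6 shares with 1010001N08Rik on the opposite strand cannot be told apart.

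Gata4 (ENSMUSG00000021944, chromosome 14, 63198922 to 63271692) had 0 counts in each of the 3 controls. The Folfiri replicates 1, 2 and 3 held 4, 6 and 14 counts. Set against a floor of 3 counts over the control group, the Folfiri group was at least 6.16-fold higher. Replicate 3 held most of the counts, and without it the bound was 3.96-fold. It was 3.79- and 4.03-fold without control replicates 1 and 2, where the same floor is set against fewer libraries. The main filter left Gata4 out, and DESeq2's Wald test gave an adjusted p of 0.00227. Its highest culture stood at 0.425 CPM.

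Elf3 (ENSMUSG00000003051, chromosome 1, 135253575 to 135258568), an ETS factor that epithelial cells use in terminal differentiation, had the highest level per exonic length in both groups. Its level was 400, 573 and 552 CPM in controls 1, 2 and 3 and 199, 205 and 211 CPM in Folfiri replicates 1, 2 and 3. Control replicate 1 was the lowest control and still well above the Folfiri cultures, which lay close together. The mean went from 508 ± 94.3 to 205 ± 6.02 CPM, 2.48-fold lower, with a log2 fold change of -1.31 ± 0.12 (SE) and an adjusted p of 3.04e-06 in edgeR. Without control replicate 1 it was -1.46. Elf3 shares 162 exonic bases, 7.31% of its exonic length, with the antisense gene Gm26642, and reads from these bases cannot be assigned to a strand.

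Klf5 (ENSMUSG00000005148, chromosome 14, 99298691 to 99315036) was at 350, 370 and 361 CPM in controls and at 253, 245 and 188 CPM in Folfiri replicates 1, 2 and 3. The groups were apart, and Folfiri replicate 3 lay lowest. The log2 fold change was -0.66 ± 0.11 (SE) with an adjusted p of 0.00019 in edgeR, and -0.53 without Folfiri replicate 3. Klf4 (ENSMUSG00000003032, chromosome 4, 55527143 to 55532466) was at 168, 182 and 188 CPM in controls and at 129, 129 and 121 CPM after Folfiri. The Folfiri cultures were again all under the controls, by a smaller margin, with a log2 fold change of -0.51 ± 0.07 (SE) and an adjusted p of 6.54e-05 in edgeR. Per exonic length Klf4 stood at 84.9% of Klf5 in controls and 95.5% after Folfiri, a log2 difference of 0.16 with an exact two-sided permutation p of 0.2 and the same value after adjustment. This difference rested largely on Folfiri replicate 3, without which it was 0.0593. For Klf4 alone, the log2 fold change with a culture left out ran from -0.55 to -0.47.

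Vdr (ENSMUSG00000022479, chromosome 15, 97854425 to 97910630) was low in all cultures, with 20, 19 and 16 counts in controls and 19, 13 and 24 counts after Folfiri. In CPM these were 0.720, 0.760 and 0.823 against 0.637, 0.420 and 0.728. The groups overlapped by 1 Folfiri culture. The log2 fold change of -0.35 ± 0.27 (SE) did not pass the threshold (adjusted p = 0.256, edgeR). The counting interval of the ratio of control to Folfiri ran from 0.863 to 1.88. Ratios within it are compatible with the summed counts, and it leaves out the spread between cultures. The log2 fold change was -0.53 without Folfiri replicate 3 and -0.15 without Folfiri replicate 2, and neither passed the threshold.

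The size of these changes moved with the scaling. When libraries were scaled by total counts only, the median of all tested genes moved from 0.02 to 0.30 and the share of calls that were higher from 51.0% to 63.3%. The median of the 8 tested factors was then -0.30. The log2 fold change of Klf4 then came to -0.23 and that of Klf5 to -0.38, while Gata6 came to 1.10. Their directions and calls did not change. Relative to the median of all genes, Klf4 was at -0.53 with TMM factors and at -0.52 with total counts.

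**Figure D2:**
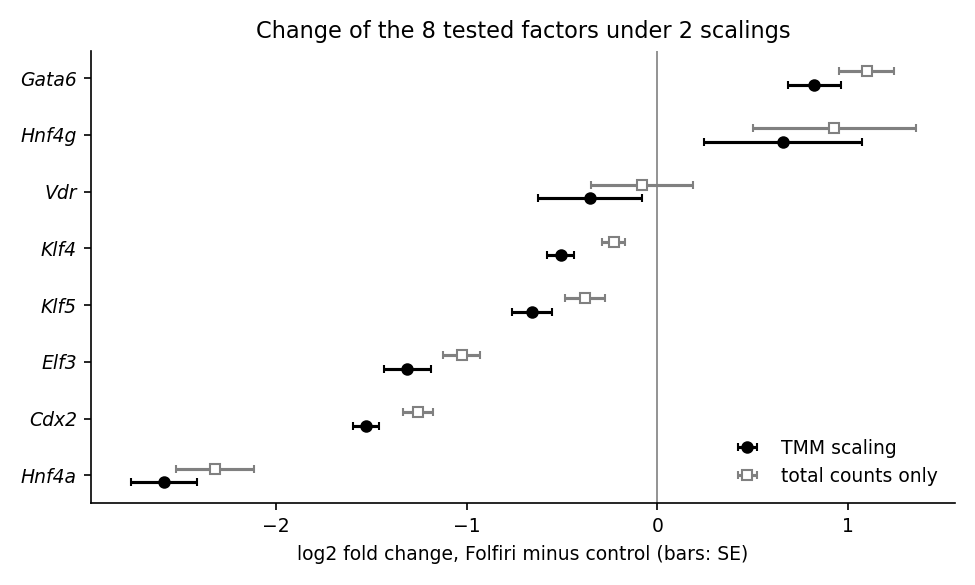
Log2 fold change, Folfiri minus control, of the 8 tested factors in edgeR, with TMM scaling (filled circles) and with total counts only (open squares), bars for SE and a vertical line at 0. With TMM scaling Hnf4a lies lowest at -2.59 and Gata6 highest at 0.82, and every factor lies further to the right with total counts only.

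Levels were set side by side between factors as RPKM, TMM-normalized which are CPM divided by exonic length in kilobases. In controls Elf3 stood highest at 229 ± 42.6 RPKM (SD, n = 3), followed by Cdx2 at 69.5 ± 3.04 and Klf5 at 69.3 ± 1.89, which overlapped, and Klf4 at 58.8 ± 3.23. Hnf4a was far lower at 2.59 ± 0.465 RPKM, above Gata6 at 0.583 ± 0.0348 and Cdx1 at 0.297 ± 0.0927. Vdr at 0.136 ± 0.00915 and Hnf4g at 0.108 ± 0.0636 RPKM overlapped, and Gata4 was at 0. In each of the other neighbouring pairs the 3 cultures did not overlap.

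After Folfiri the order of the factors was different. Elf3 remained first at 92.4 ± 2.71 RPKM, but Cdx2 at 24.1 ± 0.333 stood under both Klf5 at 43.9 ± 6.82 and Klf4 at 41.4 ± 1.59, which overlapped each other. Gata6 at 1.03 ± 0.106 RPKM stood above Hnf4a at 0.432 ± 0.062, the reverse of the controls, with no overlap in either group. Hnf4g at 0.184 ± 0.0418, Vdr at 0.105 ± 0.0281 and Gata4 at 0.0643 ± 0.0393 followed, of which Vdr and Gata4 overlapped. Hnf4g had stood under Vdr in controls. Cdx1, above Vdr, Hnf4g and Gata4 in controls, came last at 0.00615 ± 0.0106 RPKM. Among all genes of the table, Cdx2 exceeded 95.9% in controls and 89.8% after Folfiri, and Hnf4a exceeded 61.9% and 46.2%. No run of 31 bases was shared between annotated transcripts of different factors.

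**Figure D3:**
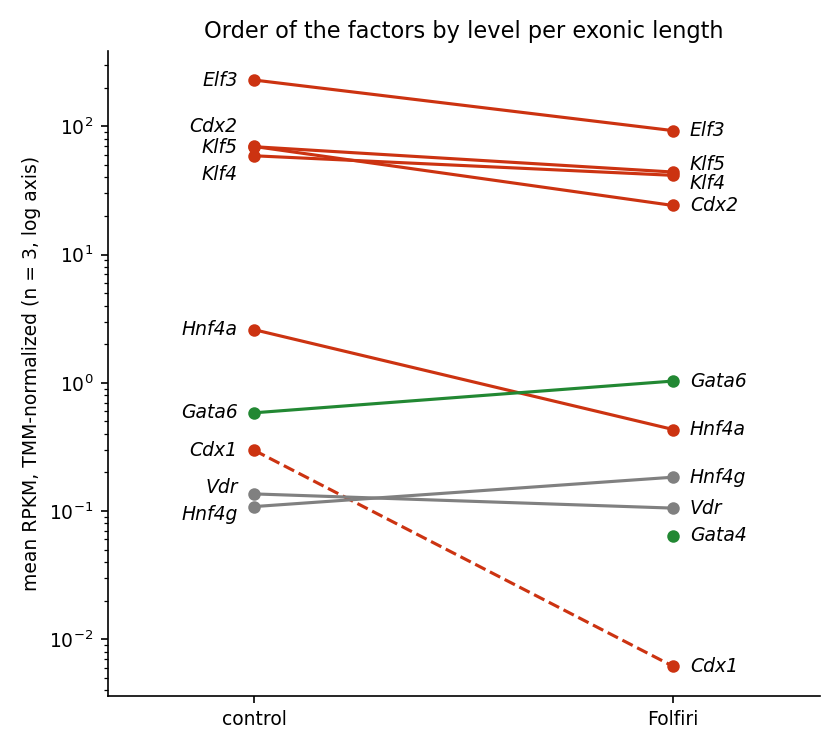
Mean RPKM (n = 3) of each factor in controls and after Folfiri, on a log axis, with red for lower, green for higher and grey for overlapping groups. The lines of Cdx2 and Hnf4a cross those of Klf4, Klf5 and Gata6. The dashed line marks Cdx1, which rests on 1 count after Folfiri, and Gata4 has no line because it was at 0 in controls.

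Relatives of the factors moved in both directions. Counts of calls in this and the following lists stand against 40.3% of all tested genes called higher and 38.8% called lower. Of 24 other GATA, KLF and ELF genes in the table, with Ehf counted among the ELF genes, 18 were tested. Of these, 6 were higher, 6 lower and 6 not called, with a median log2 fold change of -0.10. With scaling by total counts only, 8 were higher and 2 lower, and the median was 0.17. The median was also above 0 without control replicate 1 (0.10) and without Folfiri replicate 3 (0.03). Gata3, known from T cells and breast epithelium, fell from 14.5 ± 1.54 to 1.58 ± 0.541 CPM, with an adjusted p of 1.96e-07 in edgeR (log2 fold change -3.21 ± 0.20, SE). Gata2, known from blood progenitors, rose from 0.532 ± 0.168 to 2.53 ± 0.4 CPM. GATA genes therefore differed in direction, with Gata2 and Gata6 called higher and Gata3 lower. Among ETS genes, Elf5 rose by 1.55 and Elf2 by 0.61 on the log2 scale, while Elf1 and Ehf, named after their values were seen, were called lower (-0.24 and -0.26), a call and direction that they lost with total counts only (0.03 and 0.01). Among KLF genes Klf12 fell by 0.85 and Klf2 fell by 0.45, the latter not called with total counts only (-0.17). Other KLF genes were called higher, such as Klf6, from 195 ± 10.5 to 297 ± 14.2 CPM, and Klf16, from 33.8 ± 1.77 to 43.7 ± 0.443 CPM, which were named after their values were seen.

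Of 23 other factors of gut epithelium, 17 were tested, 10 were lower, 1 was higher and 6 were not called, with a median of -0.33. Over all tested genes, 79.1% were called, 38.8% lower and 40.3% higher. With total counts only, 7 were lower and 2 higher and the median was -0.06, whereas without control replicate 3 it was -0.53. Pparg, a nuclear receptor of lipid metabolism, fell from 48.9 ± 0.972 to 14.8 ± 0.928 CPM, with a log2 fold change of -1.73. Maf fell by 1.31 on the same scale. Rxra, a partner of VDR and of other nuclear receptors, rose from 14.6 ± 2.08 to 26.4 ± 1.34 CPM (adjusted p 3.67e-05, edgeR).

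Factors of other endodermal organs were mostly low. The highest was Pax9, at 28.65 ± 3.58 and 29.62 ± 1.81 CPM, which was not called and was named after its values were seen. Of 11 in the table, 5 were tested, 3 higher, 1 lower and 1 not called, and 4 had at most 3 counts in every culture. Sox2, a factor of stomach and esophagus, rose by 0.49 on the log2 scale, from 3.10 ± 0.236 to 4.37 ± 0.761 CPM (adjusted p 0.019, edgeR). This call was lost without control replicate 2, control replicate 3 or Folfiri replicate 3 (edgeR adjusted p 0.051, 0.0576 and 0.0892), and without the last the log2 fold change was 0.34. With total counts only it was 0.76, and 4 of the list were higher. Hhex, a factor of liver and foregut, rose by 0.60, and Prox1, a factor of liver and pancreas, fell by 0.74. Pax8, a factor of the thyroid, was the other gene called higher, at 0.0411 ± 0.0371 and 0.642 ± 0.129 CPM, and was named after its values were seen. Cdx4 and Nkx2-1 were not analysed here.

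Genes of lipid handling linked to HNF4 were called in both directions. Of 13 in the table, 7 were tested, 2 higher, 4 lower and 1 not called, with a median of -0.56. It was -0.28 with total counts only, -0.06 over all 13 genes without a filter and -0.08 over 12 genes with DESeq2. With 9 genes tested it was -0.20 without control replicate 2 and -0.25 without control replicate 3, and for the other cultures left out it ran from -0.38 to -0.34. Mttp, which loads lipid onto lipoproteins, rose from 5.18 ± 0.505 to 15.6 ± 1.55 CPM, by 1.59 ± 0.13 (SE) on the log2 scale, with an adjusted p of 8.75e-07 in edgeR. Mttp shares 7.36% of its exonic length with Trmt10a on the opposite strand. Fabp2, the intestinal fatty acid binding protein, rose from 0.620 ± 0.0915 to 1.70 ± 0.243 CPM. The genes of fatty acid activation and oxidation Hadha and Acsl5 fell by 0.83 and 0.70 on the log2 scale. The apolipoprotein genes Apoa1, Apob, Apoc2 and Apoc3 failed the filter, and Apoa4 and Fabp1 were not analysed here.

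Among 13 genes linked to CDX proteins, 8 were tested, 3 lower, 1 higher and 4 not called. Heph, a ferroxidase that gut cells use to export iron, fell from 88.7 ± 6.91 to 27.3 ± 2.37 CPM, with an adjusted p of 6.91e-08 in edgeR (log2 fold change -1.70 ± 0.09, SE). The intestinal cadherin Cdh17 fell from 706 ± 51.6 to 354 ± 13.6 CPM and the surface antigen Gpa33 from 142 ± 2.76 to 103 ± 4.7 CPM. Vil1 had a log2 fold change of -0.11 and Krt20 one of -0.13, and neither passed the threshold. The gene called higher, Lct, the lactase of the brush border, went from 0.0373 ± 0.0361 to 0.384 ± 0.0573 CPM (adjusted p 0.00051, edgeR) and was named after its values were seen. The median of the list was -0.12. It was -0.06 without Folfiri replicate 3, -0.19 without Folfiri replicate 2, and 0.15 with total counts only. With total counts the calls were again 3 lower and 1 higher. Sis and Muc2 were not analysed here.

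Of 12 genes linked to VDR, 5 were tested, 2 higher, 1 lower and 2 not called, with a median of 0.14. With total counts only, 4 were higher and 1 lower and the median was 0.41. It was 0.58 over all 12 genes without a filter, 0.42 over 7 genes with DESeq2 and 0.07 over 4 genes with the filter of 1 CPM. Cldn2, a claudin of leaky tight junctions, fell from 2.32 ± 0.393 to 0.256 ± 0.0301 CPM (adjusted p 9.8e-07 in edgeR, log2 fold change -3.17 ± 0.26), and Atp2b1, a calcium pump, rose by 0.43 on the log2 scale. Trpv6, the calcium channel of gut uptake, went from 0.0558 ± 0.0223 to 0.598 ± 0.0191 CPM, with an adjusted p of 3.24e-05 in edgeR and no overlap of the groups. Its level was under the limit for naming list genes, and it was named after its values were seen. Cyp24a1, the vitamin D degrading enzyme that VDR induces, was at 0.0892 ± 0.113 CPM in controls and 0.162 ± 0.0633 CPM after Folfiri and failed the filter. S100g was not analysed here.

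Of 8 genes linked to GATA factors, mainly of bile acid transport in the ileum, 2 were tested, 1 higher and 1 lower. The called genes were Bmp4, a signaling protein, which fell by 0.74 on the log2 scale, and Nox1, an oxidase of colon epithelium, which rose from 0.245 ± 0.103 to 1.20 ± 0.0408 CPM and was named after its values were seen. Nox1 shares 12.1% of its exonic length with Cstf2 on the opposite strand. Slc10a2, Fabp6, Slc51a, Slc51b and Fgf15 failed the filter.

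All 7 genes linked to KLF4, KLF5 or ELF3 were tested, of which 3 were higher and 4 lower, with a median of -0.47, or -0.18 with total counts only. Tgfbr2, a TGF-β receptor gene activated by ELF3, rose from 97.3 ± 15.2 to 223 ± 15.4 CPM, by 1.19 ± 0.11 (SE) on the log2 scale, with an adjusted p of 2.17e-06 in edgeR. Lcn2, an antimicrobial protein of stressed epithelium, rose from 0.142 ± 0.0648 to 3.96 ± 0.766 CPM. Ccnd1, a cyclin gene of the G1 phase, rose from 78.6 ± 11.8 to 394 ± 10.6 CPM, although 23.4% of its exonic length is shared with a gene on the opposite strand. Cdkn1a, a cell cycle inhibitor gene that KLF4 and p53 activate, fell by 1.63 on the log2 scale, Cldn7 fell by 0.75 and Krt19 fell by 0.62.

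**Figure D4:**
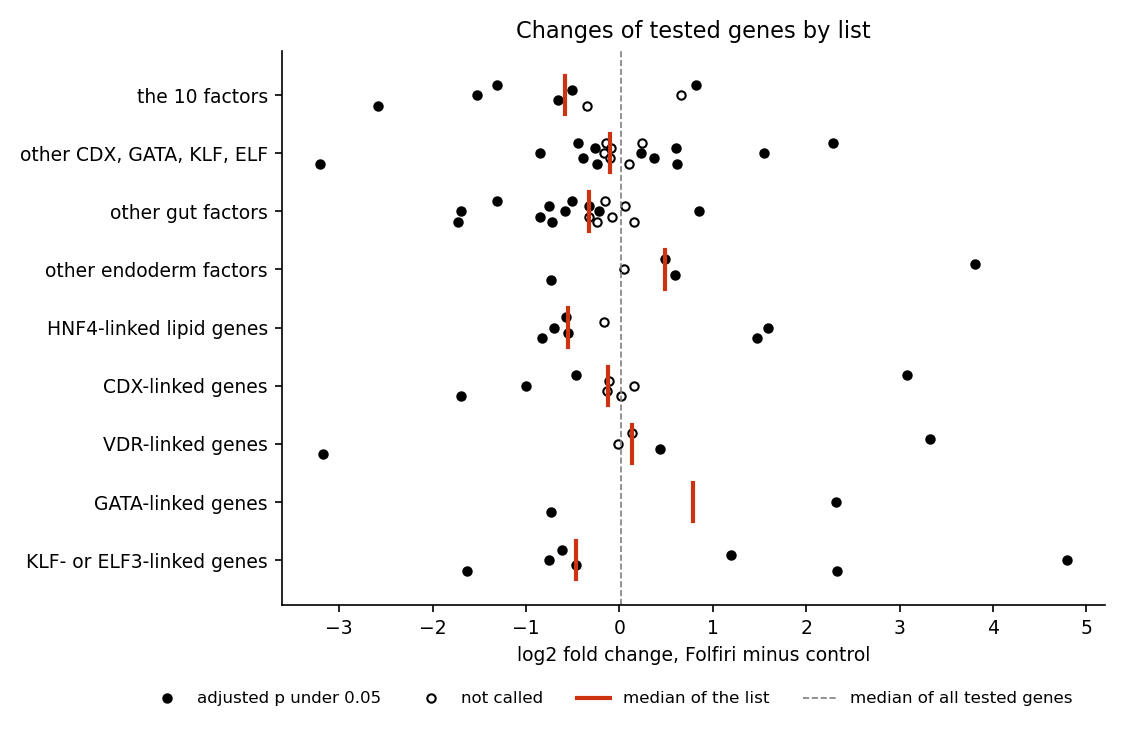
Log2 fold changes, Folfiri minus control, of the tested genes in each list, with filled points for an adjusted p under 0.05, red bars for list medians and a dashed line for the median of all tested genes. The median of the factors is -0.58, that of other gut factors -0.33, and that of genes linked to VDR 0.14.

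Markers of other cell types were low, with exceptions. The epithelial markers did not move together, since Epcam fell from 1252 ± 145 to 653 ± 14.4 CPM while Cldn4 rose from 189 ± 16.3 to 308 ± 28.2 CPM. The 7 immune markers summed to between 21.3 and 26.1 CPM in controls and between 21.5 and 22.4 CPM after Folfiri, nearly all of it Cd68, and Lyz2 and Tyrobp had at most 3 counts in every culture. Ptprc, the pan-leukocyte marker, was called higher, at 0.396 ± 0.0625 and 1.06 ± 0.103 CPM (log2 fold change 1.39, adjusted p 0.00048, edgeR), with no overlap of the groups. The sum of 6 fibroblast markers was higher after Folfiri, 2.03 to 2.45 CPM against 1.08 to 1.44 CPM, with Col1a2, Col3a1 and Pdgfrb at no more than 3 counts in any culture. Of this list Dcn and Pdgfra were called higher, Dcn at 0.024 ± 0.0416 and 0.694 ± 0.126 CPM and Pdgfra at 0.397 ± 0.117 and 1.14 ± 0.176 CPM. Col1a1 was called lower, at 0.842 ± 0.216 and 0.301 ± 0.0637 CPM. The 4 endothelial markers summed to between 72.3 and 124.6 CPM in controls and between 65.7 and 76.4 CPM after Folfiri, nearly all of it Cdh5, whereas Pecam1 was at 0.47 ± 0.149 and 0.459 ± 0.00938 CPM. The part of these markers in the levels of the 10 factors was not tested.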

How the data were processed

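RNA was purified with poly(A) selection, and the 6 libraries were made with a kit that does not mark strand. The authors aligned reads with STAR 2.5.2 to the mouse genome (GRCm38, GENCODE annotation vM25) and deposited raw counts per gene made with Rsubread. The strand setting and the treatment of reads with several positions are not given in the sources used here. The labels and methods give a treatment of 2 days, but a figure legend gives 4 days. Groups follow the labels.

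Positions, symbols and exonic lengths came from GENCODE vM21, on the same build, and 24168 of 24190 identifiers had a symbol. In R 4.3.3, edgeR 4.0.16 was run on the deposited counts (quasi-likelihood test, filterByExpr, TMM factors). Adjustment was by Benjamini-Hochberg over the 14692 tested genes. The procedure was also run on simulated counts in which few genes changed, equally in both directions. That run does not test the scaling or error rate where 79.1% of tested genes are called, as here. CPM and RPKM were computed from the counts. Ratios of paralogs were compared by exact permutation with SciPy 1.17.1. Counting intervals are exact at 95% and cover counting error only. Each list names up to 3 genes per direction, called, not overlapping between groups, and with a mean of at least 1 CPM. A few genes under this rule are not reported here. The members and lists were chosen with earlier results of these data known. Alternatives were other scalings and filters, DESeq2 1.42.0, the replicate number as a block, and each culture left out in turn. An alignment of paralogous proteins was planned and not run, since no protein sequences were used here.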

Additional observations from a re-analysis of the deposited data

How the results depend on the processing

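In all, 102 of 102 fold changes of the tested factors under alternatives kept their direction and side of the threshold. The count of called genes linked to VDR went from 3 to 5 with total counts only, where Cldn12 and Abcb1a were called as well. Leaving out 1 culture at a time gave between 11021 and 12312 called genes and between 6 and 7 called factors, the seventh being Cdx1, which then passed the filter. The log2 ratio of Hnf4g to Hnf4a differed by 2.93 to 3.88, and that of Klf4 to Klf5 by 0.0593 to 0.224. Samples with the same replicate number did not deviate together (r = 0.0268, -0.117 and 0.0393). Whether they were handled together is not given, and these values cannot show it. A replicate block gave 11499 called genes against 11623 and changed no call among the 8 factors tested. Medians of other lists moved as well: with the filter of 1 CPM to -0.50 for gut factors and from 0.49 to 0.28 for other endoderm factors, with upper quartile scaling to -0.07 for CDX-linked genes and -0.04 for relatives, and without a filter to -0.18 for relatives. Cdx1, Gata4, Hnf4g and Vdr rest on few counts, and their changes are limited by depth. Cdx1 and Gata4 had no value under settings whose filter removed them, and their ratios to Cdx2 and Gata6 could be formed only with 0.5 counts added.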
